A study of Mus musculus with 3 samples.

Results

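The comparison set fused medial edge epithelium of the mouse palate, kept in culture for 12 h after the palatal shelves had been put in contact, against unfused epithelium taken at 0 h. It used 2 of the 3 arrays of the series, chosen by their time labels, with 1 array on each side. Both samples came from CF-1 embryos, an outbred mouse stock, at embryonic day 13.5. The epithelium was lifted off with Dispase II, a protease that frees epithelial sheets, and its RNA was amplified before labelling. The unfused sample is not described as cultured, so contact, fusion and time in culture cannot be told apart. The number of embryos behind each sample is not stated in the labels. With 1 array a side there is no replicate error, no test and no p-value for any value below, and precision is limited by that number of arrays.

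The secondary palate forms when paired shelves rise above the tongue and meet at the midline. The medial edge epithelium at their tips, which carries a flat outer layer of periderm cells, adheres into a midline seam. Known routes by which that seam is lost are cell death, migration and a change of epithelial cells into mesenchyme, and transforming growth factor beta 3 is the best known signal for it. A seam that persists leaves a cleft.

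Each of 12422 probe sets other than controls gave 1 signal per array. Signals were scaled so that the arrays had a common trimmed mean, with factors of 0.676 at 0 h and 1.09 at 12 h, and scaled signals are given throughout. Signals under 13.5, the pooled 40th percentile of the 3 arrays, were set to that floor, and a ratio with 1 side at the floor is written as at least N-fold. Readings under 13.5 are printed as they were before the floor, so the quotient of such a pair exceeds the bound that was used. Genes were followed through 10833 probe sets that name a single gene, which cover 8251 genes. Of these, 5878 lay above the floor at 0 h and 5405 at 12 h.

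Control probe sets placed along 2 abundant transcripts differed between the arrays by up to 84.5-fold. For Gapdh, a glycolytic enzyme, the 5′ set read 3499 at 0 h and 44.9 at 12 h, the middle set 3216 and 74.9, and the 3′ set 2897 and 668. For Actb, cytoplasmic beta-actin, the 5′ set read 3243 and 38.4, the middle set 3500.4 and 81.8, and the 3′ set 3321 and 458. The 12 h array was thus lower at each of these positions, by 77.8-fold and 84.5-fold at the 5′ ends and by 4.34-fold and 7.24-fold at the 3′ ends. The ratio of the 3′ to the 5′ set went from 0.828 to 14.9 for Gapdh and from 1.02 to 11.9 for Actb. In bacterial transcripts of the array's own controls, the ratio changed at most 2.59-fold, from 0.427 to 1.10 for BioB. Actb also has separate probe sets that are not controls. The brighter read 330.2 at 0 h and 673 at 12 h, 2.04-fold higher, while the other had a log2 ratio of -3.39. Probe sets for the same transcript thus differed in direction on these arrays. The part of these 3′ to 5′ ratios in any gene's ratio below was not tested.

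**Figure D1:**
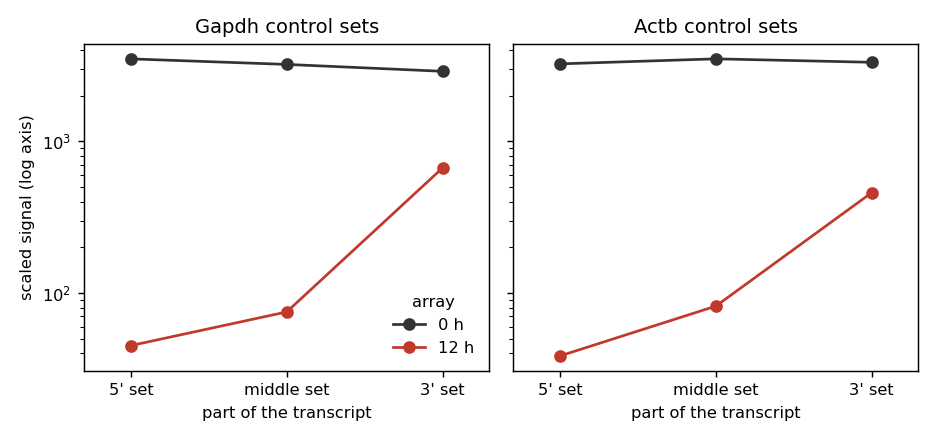
Scaled signal (log axis) of the 5′, middle and 3′ control probe sets of Gapdh (left) and Actb (right) on the 0 h array (dark) and the 12 h array (red), 1 array each. The 0 h lines are nearly flat, while the 12 h lines climb from 44.9 to 668 for Gapdh and from 38.4 to 458 for Actb.

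Over all genes, the 12 h array had more genes lower than higher. The brightest probe set, by its mean over the 3 arrays, stood for each gene. Of 6379 genes above the floor on 1 or both arrays, 1128 (17.7%) were higher at 12 h by 2-fold or more and 1739 (27.3%) lower by as much. Higher genes were 39.3% of all those past 2-fold. That split depended on the scaling. It was 16.8% with unscaled values, 58.7% when arrays were centred on their medians and 51.1% when their distributions were made equal by quantile normalization. All genes together had a median log2 ratio of -0.21, which became -0.83, 0.18 and 0.07 under these alternatives, so each list of genes below is read against the median of all genes. Of the 6379 genes, 501 had only a lower bound because 0 h lay at the floor, and 974 because 12 h did.

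**Figure D2:**
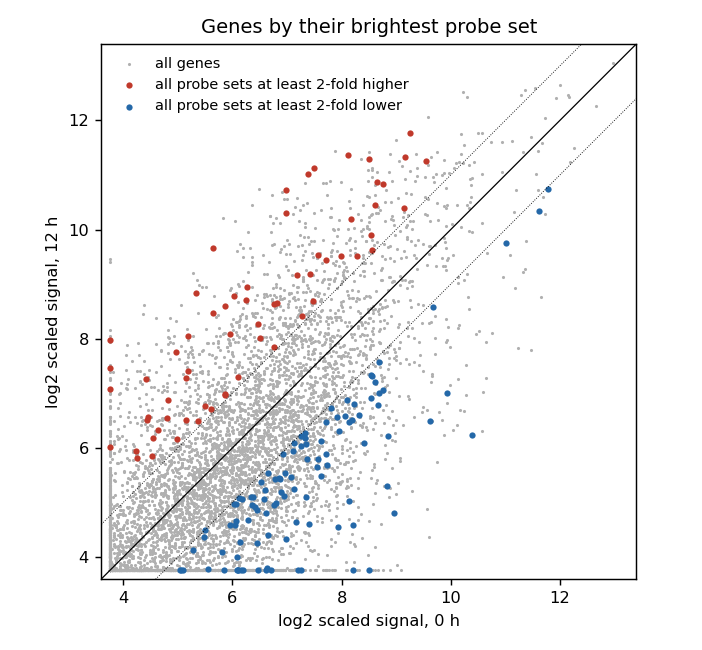
Log2 scaled signal at 0 h (x axis) and 12 h (y axis) for each gene's brightest probe set, with floored values at the left and lower edges. The solid line marks equal signals and the dotted lines 2-fold differences. Red points are the 63 genes whose probe sets were all at least 2-fold higher and blue points the 105 whose probe sets were all at least 2-fold lower.

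Many genes have several probe sets, which read different stretches of a transcript or different sequence records, and 1105 genes had at least 2 of them above the floor on either array. Every set was higher by 2-fold or more for 63 genes (5.7%) and lower by 2-fold or more for 105 (9.5%). Taken singly, 18.4% of the 2400 sets of these 1105 genes were higher by that rule and 28% lower. Whether sets of a gene agreed more often than these shares alone would give was not tested. In 94 genes (8.51%), sets passed the 2-fold rule in opposite directions. Sets designed on the same record can share probes, so genes with sets from different records were also taken alone. Of 964 such genes, 41 (4.25%) had all sets higher, 90 (9.34%) had all sets lower and 88 had sets 2-fold apart in opposite directions. The sets of a gene pointed the same way in 54.3% of these 964 genes, against 70.2% of the 141 genes whose sets came from 1 record. Brighter sets did not raise that share. It was 53.7% where the weakest set had a signal under 50 and 53.6% in the 28 genes where every set reached 300. For 809 genes with a pair of sets from 2 records, the log2 ratios correlated at r = 0.211 across genes, which share both arrays and are not replicates. The SD between sets of a gene was 1.24 on the log2 scale, over 672 genes. A ratio from a single probe set therefore carries a spread of the size of the 2-fold rule itself.

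**Figure D3:**
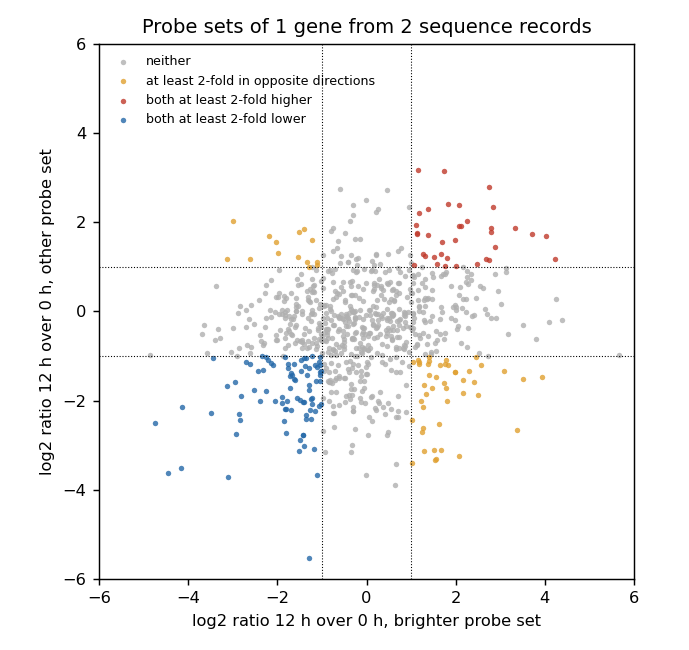
Log2 ratio of 12 h over 0 h in the brighter probe set (x axis) and the other probe set (y axis) of 809 genes with sets from 2 sequence records. Dotted lines mark 2-fold. Red and blue points lie beyond 2-fold in the same direction, and orange points beyond 2-fold in opposite directions, in the upper left and lower right corners.

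Smad1 came first among the genes whose sets were all higher at 12 h, ranked by the set with the smaller difference. Smad1 transduces signals of bone morphogenetic protein receptors. Its sets read 84.4 at 0 h and 1503 at 12 h, and 168 and 2063, which is 17.8-fold and 12.3-fold higher. Klf10 is a zinc finger factor first found as an early target of transforming growth factor beta. Its sets read 78.6 and 317, and 49.8 and 353, 4.03-fold and 7.08-fold higher. The sets of each of these genes come from 1 record. Csnk1a1, the casein kinase that primes beta-catenin for degradation, had sets from 2 records that read 306 and 1591, and 431 and 1825, 5.199-fold and 4.24-fold higher. Birc2, an inhibitor of apoptosis that acts as a ubiquitin ligase, read 21.4 and 153 in its brighter set, 7.13-fold higher. Its other set read 7.10, under the floor, and 68.8, at least 5.09-fold higher.

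The other genes of the first 15 have varied roles. Cpe, a carboxypeptidase that trims prohormones, had sets of 1 record at 126 and 1267, and 87.6 and 2292, 10.1-fold and 26.2-fold higher. Piga, which starts the synthesis of the lipid anchors of cell surface proteins, had sets of 2 records at 31.1 and 217, and 58.1 and 388, 6.96-fold and 6.69-fold higher. The ranking by the weaker set favours genes whose sets are close, so that closeness is not a check on Piga. Vamp4, a fusion protein of the trans-Golgi network, read 81.5 and 298, and 31.2 and 217. B3gnt2, which extends sugar chains of glycoproteins, and Atp13a3, a transport ATPase, each had 1 measured set, 4.20-fold and 4.36-fold higher, and 1 set with a bound of 3.76-fold. The zinc transporter Slc30a5 was 4.21-fold and at least 5.51-fold higher in sets of 1 record. Romo1, a small protein of the inner mitochondrial membrane, read 402 and 1881, and 209 and 1015. The centriole protein Cetn3 read 576 and 2558, and 23.3 and 127. Ccni, an atypical cyclin, read 181 and 2224 in its brightest set, and Otud4, a deubiquitinase, 126 and 1694. All 4 of these genes rest on a single record, and Ccni and Otud4 each have 1 more set under the floor on both arrays.

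Beyond the first 15, Hif1a, the oxygen-regulated subunit of hypoxia-inducible factor, had bright sets of similar ratio. Both sets carry a suffix that marks possible cross-hybridization. So do 158 of the 346 sets above the floor in genes higher or lower in all sets. Among the genes named, every such set of Cpe, Ccni, Romo1, Cetn3, Slc30a5, Otud4, Anxa1 and Gja1 carries a suffix of this kind. The same holds for Junb, Krt17 and Actc1 among the lower genes. The Hif1a sets read 749 at 0 h and 2216 at 12 h, and 752 and 2442, 2.96-fold and 3.25-fold higher. Its target Ndrg1 read 72.9 and 167, and 88.4 and 308. Anxa1, an annexin abundant in differentiating surface epithelium, had 3 sets, all higher, which read 276 and 2643, 446 and 2071, and 51.0 and 121. Gja1, the gap junction protein connexin 43, read 613 and 3480, and 44.7 and 147, from 1 record. Tfdp1, a partner of E2F transcription factors, read 117 and 376, and 255 and 736. The adhesion receptor Cd47 read 113 and 403, and 37.3 and 198. Tfdp1 is on none of the lists described below and was named after its values were seen.

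The lower genes were ranked in the same way, and Meg3 came first. Meg3, a long noncoding RNA expressed from the maternal chromosome, read 295 at 0 h and 3.27 at 12 h, and 247 and 19.96, at least 21.8-fold and 12.4-fold lower. Gtf2i, a general transcription factor, read 786 and 90.5, and 294 and 22.3, 8.68-fold and 13.2-fold lower. Junb, a subunit of the AP-1 transcription factor, read 264 and 1.64, and 243 and 23.5, in sets of 1 record. Sox4, a factor of embryonic progenitor cells, read 496 and 28.1, and 248 and 56.3, 17.6-fold and 4.41-fold lower. Every one of these sets was at or above 243 at 0 h and at most 90.5 at 12 h. Cdk4, the kinase that D cyclins activate to start the cell cycle, read 973 and 129 in its bright set and 91.3 and 6.76 in the other, 7.57-fold and at least 6.75-fold lower. Ptov1, a prostate tumour overexpressed gene, read 1346 and 75.0, and 198 and 17.5. Dctpp1, which removes surplus deoxycytidine nucleotides, read 363 and 7.96, and 144 and 25.2. The weaker set of Dctpp1 was 5.70-fold lower, so its fold rests on the set chosen.

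The remaining lower genes of the first 15 were of varied roles. The LIM domain protein Csrp1 was 7.13-fold and at least 5.45-fold lower. Map2k3, a kinase that activates p38, read 153 and 12.5, and 125 and 25.7. Plxnb2, a semaphorin receptor, read 169.6 and 24.2, and 72.8 and 19.5. Aldh7a1, an aldehyde dehydrogenase, had sets of near equal fold, 4.04-fold and 4.14-fold lower. Eif2b5, a subunit of the exchange factor that recharges initiation factor 2, was 3.72-fold and at least 4.19-fold lower. The sorting nexin Snx17 and the ADP-ribose hydrolase Adprhl2 were at the floor at 12 h in both sets, with weaker bounds of 4.02-fold and 4.94-fold. Mea1 read 340.1 and 67.9, and 115 and 4.36, from 1 record.

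Genes after the first 15 that were lower in 3 sets included an epithelial keratin and a matrix protein. Krt17, a keratin of embryonic and wounded epithelium, read 51.5 at 0 h and 8.73 at 12 h, 221 and 61.9, and 246 and 78.9. Fbln1, a fibulin of basement membranes, read 458 and 39.3, 263 and 54.9, and 112 and 36.7. The tubulin gene Tubb5 read 2852 and 268, and 2079 and 864, in sets of 1 record. All of these sets were lower at 12 h, and Tubb5 was named after its values were seen.

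**Figure D4:**
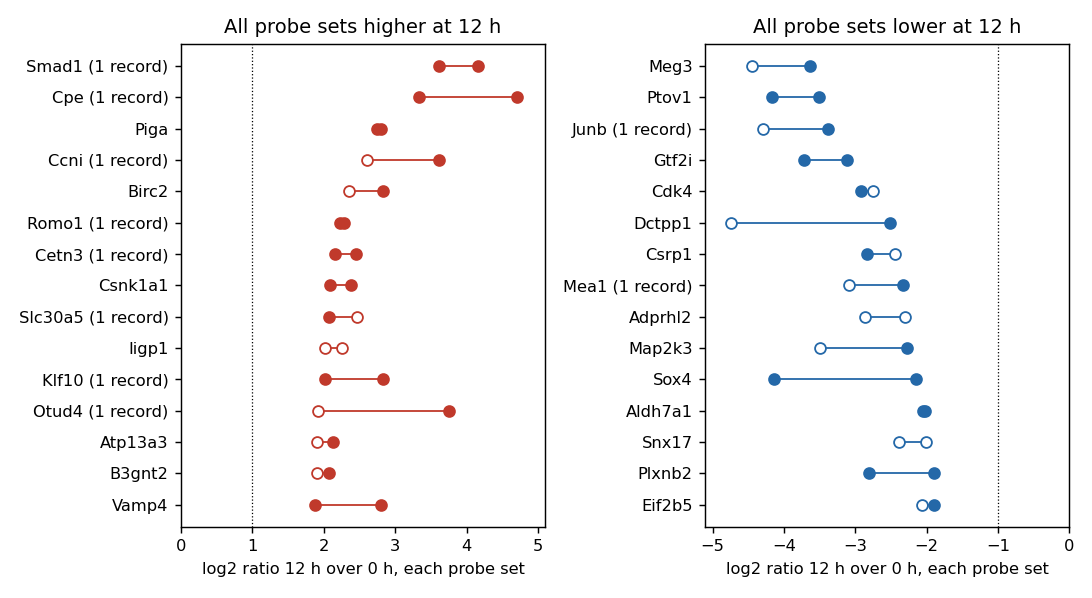
Log2 ratio of 12 h over 0 h in each probe set above the floor, for the 15 genes with the largest smaller difference in each direction. Filled points were above the floor on both arrays, open points have 1 array at the floor and are bounds, and the dotted line marks 2-fold. Smad1 and Cpe lie beyond 3.3 in both sets, and Meg3 and Ptov1 beyond -3.5.

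How far these calls rest on the scaling and the floor was counted gene by gene. Of the 63 higher genes, 17 kept all sets at least 2-fold higher under each of 6 alternatives of scaling and floor, and 9 of those 17 had sets from 2 or more records. These 9 were Piga, Csnk1a1, Vamp4, Ndrg2, Cd47, Norad, Selenok, Lrrfip1 and Tmem30a. Of the 105 lower genes, 21 kept their call under the same 6, and 18 of the 21 had sets from 2 or more records, among them Meg3, Ptov1, Gtf2i, Cdk4, Dctpp1, Csrp1, Sox4, Aldh7a1, Plxnb2, Agrn and Fbln1. Removal of sets with a cross-hybridization suffix was not among these 6. Without those sets, 19 of the 63 higher and 38 of the 105 lower genes kept their call, in part because fewer sets remained. Just inside the 2-fold rule lay Xpo1 and Ncam1, with smaller log2 ratios of 1.02 and 1.03. On the lower side, Glo1 and Gna12 lay just inside. Just outside lay Notch2 at 0.99 and Pick1 at -0.99.

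The sets of some bright genes gave opposite answers. In 64 genes, sets above the floor on both arrays lay beyond 2-fold in both directions, and the 6 with the widest gap are described here. Snx2, a sorting nexin of endosomes, read 107 at 0 h and 1106 at 12 h in 1 set and 224 and 35.5 in another, a log2 ratio of 3.37 against -2.66. Peg3, an imprinted zinc finger gene, read 554 and 2290.4, 63.0 and 216, and 391 and 30.3. For Peg3 the third set thus ran against the other 2. Rnf13, a membrane ubiquitin ligase, had log2 ratios of 3.93 and -1.47, and Capzb, the actin capping protein, 2.08 and -3.23. Ahcy, which breaks down S-adenosylhomocysteine, had 3.12, 0.95 and -1.92, and the initiation factor Eif4b 3.51 and -1.51. No direction is given for these genes.

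Gene lists for the processes and cell types of the palate were then described by their counts and medians, as 31 lists in all. A member is counted below as higher or lower at 12 h when its brightest set differed by 2-fold or more. With unscaled values, only the interferon, chemokine and p53 lists still had more higher than lower members. With median centring, the chaperone, collagen, integrin, mitosis, proteasome and splicing lists had more higher than lower members in place of fewer, and the apoptosis and translation lists were even. The counts are read against 17.7% of all genes higher and 27.3% lower by the same rule.

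**Figure D5:**
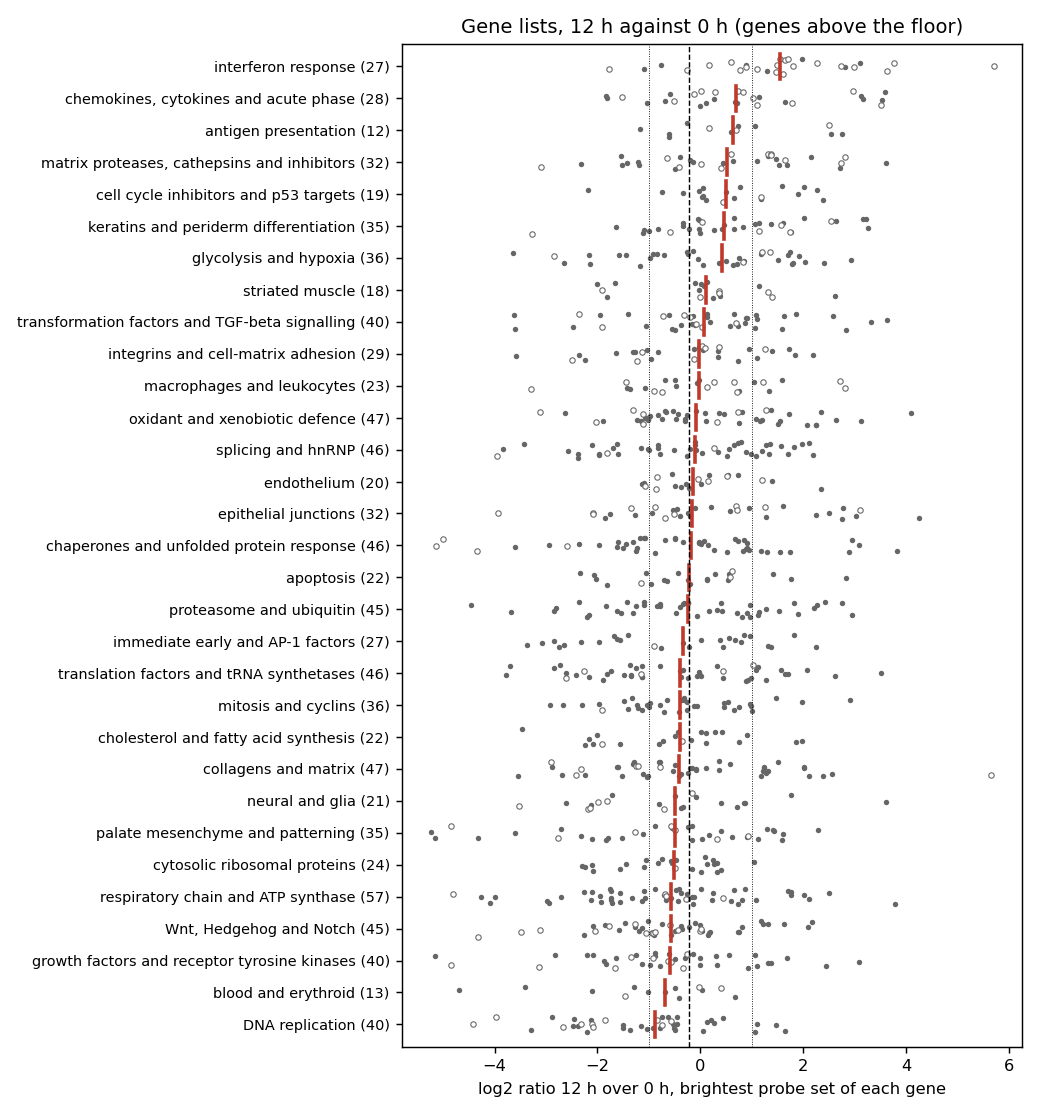
Log2 ratio of 12 h over 0 h for the members of 31 gene lists above the floor, with the number of members in brackets, ordered by median (red bar). Open points have 1 array at the floor. The dashed line is the median of all genes, -0.21, and the dotted lines mark 2-fold. The interferon list has the highest median at 1.54 and the DNA replication list the lowest at -0.89, and single members of most lists reach both sides.

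Interferon response genes stood highest among the lists. Interferons act through cell surface receptors, and the signal ends at the interferon-stimulated response element in the promoters of target genes. Of 27 members above the floor, 18 (66.7%) were higher, 2 were lower, and the median log2 ratio was 1.54. The higher members numbered 21 with median centring, 21 with quantile normalization and 17 with unscaled values. Of the 27, 20 had 1 array at the floor, so most of their ratios are bounds, and only Iigp1 had a second set to compare. Members at the floor at 0 h, such as Gbp3 and Ifih1, entered the 27 only through their 12 h signal. The 66.7% and the median therefore rest in part on the floor. The median minus that of all genes was 1.75, and it ran from 0.63 to 3.03 over 8 alternatives of processing.

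Promoter windows of 3 of the most strongly higher interferon genes are shown because they carry the core letters of that element. Each runs from 250 bases before to 50 bases after the RefSeq start of the gene in GRCm38.p6, is printed 5′ to 3′ on the gene's strand, and has matches to GAAANNGAA on either strand in capitals, joined where they overlap. The windows are chr3:142559794-142560093 on the plus strand for Gbp3, chr2:62646206-62646505 on the minus strand for Ifih1 and chr4:156200769-156201068 on the minus strand for Isg15.
Gbp3: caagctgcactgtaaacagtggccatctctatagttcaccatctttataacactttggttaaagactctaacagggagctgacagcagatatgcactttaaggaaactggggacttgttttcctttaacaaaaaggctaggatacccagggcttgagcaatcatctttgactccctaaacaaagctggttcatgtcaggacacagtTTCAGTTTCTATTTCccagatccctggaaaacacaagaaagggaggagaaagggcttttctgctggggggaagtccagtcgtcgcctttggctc
Ifih1: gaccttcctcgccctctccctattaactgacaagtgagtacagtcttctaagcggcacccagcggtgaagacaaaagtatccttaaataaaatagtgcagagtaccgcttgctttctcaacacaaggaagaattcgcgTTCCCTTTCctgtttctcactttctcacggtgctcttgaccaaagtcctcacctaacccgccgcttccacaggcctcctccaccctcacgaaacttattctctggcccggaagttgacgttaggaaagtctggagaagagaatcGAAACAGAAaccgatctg
Isg15: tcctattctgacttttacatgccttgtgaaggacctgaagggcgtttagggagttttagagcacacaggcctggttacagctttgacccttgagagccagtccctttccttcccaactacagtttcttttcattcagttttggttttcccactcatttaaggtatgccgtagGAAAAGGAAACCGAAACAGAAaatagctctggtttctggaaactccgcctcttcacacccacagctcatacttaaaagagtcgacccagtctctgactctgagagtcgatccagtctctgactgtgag
The core was found in 17 of 29 windows (58.6%) of the list's genes above the floor, covering 16 of the 22 genes with a window. Among windows of genes higher it was in 11 of 18. Of all 32851 windows in the RefSeq table, 8.56% held it. A match describes these letters alone, and the list was built from known interferon targets, so the share is a property of the list and not of the 12 h sample.

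The largest ratios, all of them bounds, on the interferon list were those of Gbp3, Ifi204 and Ifih1. Gbp3, a guanylate-binding GTPase, read 10.01 at 0 h, under the floor, and 707 at 12 h, at least 52.3-fold higher. Ifi204, a DNA sensor of the same family as human IFI16, read 4.67 and 184 in its 1 informative set, at least 13.6-fold higher. Ifih1, a sensor of double-stranded RNA, read 9.53 and 167, at least 12.3-fold higher. Iigp1, a GTPase that attacks the vacuoles of parasites, had sets of 2 records that read 9.67 and 54.9, and 8.52 and 64.7, bounds of 4.06-fold and 4.78-fold. Isg15, a small protein joined to others as ubiquitin is, read 16.7 and 144. Usp18, the protease that takes it off, read 0.811, under the floor, and 107, at least 7.93-fold higher. The antiviral proteins Ifit1, Ifit2 and Ifit3 were at the floor at 0 h and read 47.1, 89.6 and 42.0 at 12 h. The transcription factors of the pathway differed among themselves. Irf9 read 25.8 and 181, 7.01-fold higher, while Irf1 read 71.9 and 42.5, 1.69-fold lower. Ifi27 was 1 of the 2 members past 2-fold in the other direction, at 46.4 and 5.56.

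Antigen presentation genes, many of them interferon targets as well, had 4 of 12 members higher and 1 lower, with a median of 0.64. B2m, the light chain of class I molecules, read 102 and 682, 6.69-fold higher. The immunoproteasome subunit Psmb8 read 5.34 and 76.7, at least 5.67-fold higher. Tapbp, which loads peptides, was 5.82-fold higher in its brightest set, but its other sets gave 1.19-fold higher and at least 2.07-fold lower.

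Chemokines, cytokines and acute phase genes had 11 of 28 members higher and 4 lower, with a median of 0.68. Of the 28, 12 had 1 array at the floor, so their ratios are bounds. Ccl7, for example, entered only through its 12 h signal. The share and the median of this list therefore rest in part on the floor. The monocyte attractant Ccl2 was 12.0-fold higher at a 12 h signal of 168, and its relative Ccl7 read 5.61 and 154, at least 11.4-fold higher. The neutrophil attractants Cxcl1 and Cxcl5 read 29.1 and 334, and 17.0 and 153. A second set of Cxcl1 read 71.1 and 87.4, only 1.23-fold higher. Vcam1, an adhesion molecule for leukocytes, read 50.8 and 439 in its brightest set, and its other sets gave log2 ratios of 2.70, a bound, and -0.65.

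Macrophage and leukocyte genes were measured beside these groups. The 7 macrophage markers summed to 161 at 0 h and 135 at 12 h. Of these, Adgre1, Itgam, Ptprc and Lyz2 were under the floor on both arrays by their brightest sets. The others were above it on both, with Cd14 at 74.2 and 73.1, Csf1r at 35.5 and 25.5, and Cd68 at 34.7 and 16.5, 2.11-fold lower. The wider list of macrophage and leukocyte genes had 6 of 23 members higher and 5 lower. Its scavenger receptor Msr1 read 11.9 and 88.2 and its pore protein Mpeg1 5.88 and 94.5, bounds of 6.52-fold and 6.98-fold. The lipid carrier Apoe read 132 and 6.98, at least 9.78-fold lower. In bulk tissue, fewer cells of a type and less RNA per cell cannot be told apart.

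DNA replication genes stood lowest among the lists. Before DNA is copied, the origin recognition complex and the MCM helicase are loaded, and E2F transcription factors switch many of these genes on together. Of 40 members above the floor, 19 (47.5%) were lower and 4 higher, with a median of -0.89. Lower members numbered 16 with median centring, 17 with quantile normalization and 31 with unscaled values. Promoters of a pair of lower helicase genes are shown because they hold an E2F motif, TTTGGCGC or TTTCCCGC on either strand, in capitals. They are chr8:75109259-75109558 on the plus strand for Mcm5 and chr5:138171834-138172133 on the minus strand for Mcm7, in the same build and frame as above.
Mcm5: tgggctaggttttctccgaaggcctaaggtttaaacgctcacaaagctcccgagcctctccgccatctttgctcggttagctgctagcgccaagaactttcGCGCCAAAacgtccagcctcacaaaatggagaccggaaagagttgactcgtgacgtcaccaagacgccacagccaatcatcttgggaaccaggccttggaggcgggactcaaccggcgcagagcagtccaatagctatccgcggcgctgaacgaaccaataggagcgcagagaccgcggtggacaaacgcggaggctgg
Mcm7: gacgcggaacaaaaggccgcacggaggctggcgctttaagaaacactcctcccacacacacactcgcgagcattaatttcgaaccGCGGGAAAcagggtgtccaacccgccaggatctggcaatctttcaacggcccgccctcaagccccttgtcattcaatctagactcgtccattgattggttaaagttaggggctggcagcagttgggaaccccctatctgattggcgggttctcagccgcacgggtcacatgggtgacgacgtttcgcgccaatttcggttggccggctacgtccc
These motifs were in 10 of 43 windows (23.3%) of the list's genes above the floor and in 5 of 23 (21.7%) windows of its lower genes, against 1.56% of all 32851 windows. The share was thus much the same in the lower genes as in the whole list.

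Helicase and polymerase subunits led the lower replication genes. Mcm7, a helicase subunit, read 291 at 0 h and 3.27 at 12 h, at least 21.5-fold lower. Mcm5 read 485 and 49.5 in its brightest set, 9.80-fold lower, and 20.5 and 1.64 in the other, at least 1.51-fold lower. Pold2, an accessory subunit of polymerase delta, read 213 and 10.6, at least 15.8-fold lower. Pola2, of the primase complex, and Tk1, the thymidine kinase of dividing cells, were the 2 members lower in both of their sets. The Pola2 sets read 67.6 and 13.1, and 33.7 and 5.13, and the Tk1 sets 196 and 44.7, and 30.2 and 2.95. Other members ran against this. Pcna, the sliding clamp, read 404 and 1266, 3.13-fold higher, and Gmnn, which blocks new origin loading, 53.4 and 147. Cdt1, which loads the helicase, was higher in 1 set and lower in the other, at log2 ratios of 1.05 and -1.13.

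Mitosis and cyclin genes had 3 of 36 members higher and 12 lower, with a median of -0.39. Cyclin E1 (Ccne1) read 102 and 15.9, 6.40-fold lower, and Cdc25c, a phosphatase that starts mitosis, 69.4 and 33.7, and 50.6 and 22.0. Ect2, which drives cytokinesis, read 68.7 and 513, 7.47-fold higher. The direction of this list depended on the scaling, since 8 members were higher and 6 lower after median centring.

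Cell cycle inhibitors and p53 targets had 7 of 19 members higher and 1 lower, with a median of 0.49. Cdkn1a, the inhibitor p21, read 15.2 and 72.7 in its brighter set, 4.80-fold higher, and 27.4 and 50.9 in the other, 1.86-fold higher. Cyclin G1 (Ccng1) read 22.99 and 120, and Perp, a membrane protein of desmosomes that p53 induces, 177 and 718. Gadd45g read 161 and 35.2, 4.56-fold lower. Apoptosis genes had 3 of 22 members higher and 6 lower. Bcl2, which blocks cell death, was 5.05-fold lower in its brightest set, and its other sets gave 2.24-fold lower and 1.37-fold higher. Bcl2l1 read 98.3 and 24.1, and the adaptor Traf2 107 and 25.3.

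Epithelial identity was checked against its markers. Cdh1, the adhesion molecule of epithelia, read 112 and 104, and the simple-epithelium keratin Krt8 102 and 101. Both were thus near level between the arrays, while Krt18, the partner of Krt8, read 63.9 and 32.2, 1.99-fold lower. Epcam read 38.7 and 265, Trp63, the factor of basal epithelial cells, 75.9 and 230.0, and the desmosome protein Dsp 156 and 739. The keratins Krt5 and Krt14 were under the floor on both arrays, and the claudin Cldn4 read 206 and 12.8. In all, the 9 epithelial markers summed to 761 at 0 h and 1504 at 12 h, with 3 higher and 1 lower by the 2-fold rule. Mesenchymal markers were present on both arrays too, with a sum of 2471 and 5260 over 9 markers, of which 3 were higher and 4 lower. The 3 higher markers were Twist1, Col1a1, at 391 and 1582, and Col1a2, at 289 and 1711. The other sets of Col1a1 and Col1a2 gave log2 ratios of 0.10 and -1.21. Prrx1, Prrx2, Twist2 and Msx1 were lower, and Vim lay near the floor, at 14.3 and 11.9. The larger sum at 12 h thus rests on the 3 higher markers. The part of these mesenchymal transcripts in the gene groups described next was not tested.

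Junction genes went both ways. Of 32 members, 10 were higher and 7 lower, with a median of -0.16. The desmosomal cadherin Dsc2 read 20.8 and 394, 18.9-fold higher, and the plakophilin Pkp2 9.74 and 115, at least 8.52-fold higher. Gja1 was the member higher in all its sets. Tjp1, the scaffold of tight junctions, read 122 and 827, and beta-catenin (Ctnnb1) 1439.7 and 3480. Cldn4 was at least 15.2-fold lower, plakoglobin (Jup), which links desmosomes and adherens junctions, read 57.6 and 4.14, and the cadherin Cdh3 113 and 31.0 in its brighter set.

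Keratins and genes of periderm and surface differentiation had 14 of 35 members higher and 4 lower, with a median of 0.45. The count of higher members was 9, equal to the lower ones, with unscaled values. Krt10, a keratin of differentiating layers, read 28.3 and 262, 9.27-fold higher, and Emp1, a membrane protein of epithelia, 511 and 3184. Krt6a, a keratin of wounds and appendages, was higher in 1 set, at 157 and 532, and lower in the other, at 56.3 and 24.8. Sfn, the epithelial 14-3-3 protein, read 131 and 2.51, at least 9.71-fold lower, and Krt17 was lower in its 3 sets as given above.

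For transforming growth factor beta signalling and transformation factors, 10 of 40 members were higher and 8 lower, with a median of 0.08. Among the ligands, Tgfb3 read 120 and 254 in its 1 set above the floor, 2.11-fold higher, and Tgfb2 21.4 and 127, 5.92-fold higher. Tgfb1 was under the floor on both arrays. The bone morphogenetic proteins Bmp7 and Bmp4 read 69.3 and 5.24, and 87.7 and 32.9, in their brightest sets. The other set of Bmp4 went up, from 15.4 to 55.2. Among the transducers, Smad1 was higher in both of its sets, and Smad4, the shared partner of all receptor SMADs, read 72.8 and 722, 9.92-fold higher in its only set. The Id genes, inhibitors of differentiation that respond to bone morphogenetic proteins, were not uniform. Id1 read 472 and 38.3, 12.3-fold lower, and Id3 302 and 54.8, 5.52-fold lower, while Id2 and Id4 had log2 ratios of 0.13 and 1.10. Factors of epithelial to mesenchymal change differed among themselves. Zeb1 read 80.4 and 292 and Twist1 479 and 1444, both at least 3-fold higher, while Snai1 read 51.1 and 1.85, at least 3.77-fold lower, and Twist2 223 and 18.4, 12.1-fold lower. Twist1 and Twist2 are also among the mesenchymal markers.

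Palate mesenchyme and patterning genes had 7 of 35 members higher and 14 lower, with a median of -0.50. The insulin-like growth factor binding proteins Igfbp2 and Igfbp4 read 514 and 14.4, and 391 and 5.34. The other informative set of Igfbp4 was only 1.97-fold lower. Mfap2, a protein of elastic microfibrils, read 775 and 20.5, 37.8-fold lower, and the homeobox factor Prrx2 299 and 14.9. Barx1, a homeobox factor of oral mesenchyme, was lower in both of its sets, at 101 and 46.4, and 172 and 7.53.

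Collagen and matrix genes went both ways, with 13 of 47 higher and 18 lower and a median of -0.41. Col3a1, a fibrillar collagen, was the member higher in 3 sets, which read 566 and 1339, 138 and 329, and 64.2 and 338. Lamb1, a laminin chain of basement membranes, read 90.5 and 258, and 63.7 and 148. The brighter sets of Col1a1 and Col1a2 were 4.05-fold and 5.91-fold higher, while their other sets gave log2 ratios of 0.10 and -1.21. Ibsp, a sialoprotein of bone, read 9.60 and 681 in 1 set, at least 50.3-fold higher, and 26.6 and 0.654 in the other, at least 1.97-fold lower. Serpinh1, the collagen chaperone, read 760.3 and 103, 7.39-fold lower.

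Of the matrix proteases, cathepsins and inhibitors, 14 of 32 were higher and 7 lower, with a median of 0.51. With unscaled values, 9 were higher and 11 lower. Of the 32, 12 had 1 array at the floor, and members such as Mmp13 entered only through their 12 h signal. The counts and the median of this list therefore rest in part on the floor. Ctss, a cathepsin active at neutral pH, read 42.0 and 508, 12.1-fold higher, and Ctsc 10.8 and 94.6. Mmp13, a collagenase, read 1.96 and 90.2, at least 6.67-fold higher. Ctsa and Ctsd, of the lysosome, read 116 and 4.25, and 269 and 53.8. No member of this list was higher or lower in all of several sets.

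Genes of cell adhesion to matrix were not one-sided. Integrins and their partners had 6 of 29 members higher and 10 lower. Itgb5, an integrin chain, read 329 and 27.6 in its brighter set and was 1.92-fold lower in the other. Integrin-linked kinase (Ilk) read 106 and 20.7, and the adaptor paxillin (Pxn) 76.5 and 8.29.

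Lists of energy supply differed in their counts, in part with the scaling. The respiratory chain and ATP synthase list had 23 of 57 members lower and 8 higher, with a median of -0.57. Uqcr11, of complex III, read 377 and 4.14, at least 27.9-fold lower, the ATP synthase subunit Atp5l 1526 and 79.7, and Ndufb8, of complex I, 628 and 36.9. In the same complexes, Uqcrc2 read 121 and 1657 and Ndufa5 476 and 2674, 13.7-fold and 5.62-fold higher. Glycolysis and hypoxia genes had 12 of 36 members higher and 8 lower, with a median of 0.42. With unscaled values, 8 were higher and 13 lower. The control sets of the glycolytic gene Gapdh, given above, were 4.34-fold to 77.8-fold lower. Hif1a and Ndrg1 were higher in all sets, Pgk1, a glycolytic kinase, read 362 and 2734, and Pkm, the last enzyme of glycolysis, was 12.5-fold lower in its brightest set and 1.24-fold lower in the other. Cholesterol and fatty acid synthesis had 2 of 22 higher and 7 lower, among them Fasn, the fatty acid synthase, at 236 and 55.5, Srebf1, its regulator, at 190 and 40.03, Mvk at 107 and 23.7, and Fdps, which was lower in its 2 sets above the floor at 0 h but 1.21-fold higher by a bound in another.

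Both lists of protein synthesis had more lower than higher members, as had all genes, with 17.7% higher and 27.3% lower. Cytosolic ribosomal proteins had 1 of 24 members higher (4.17%) and 8 lower (33.3%), with a median of -0.52. After median centring 2 were higher and 4 lower. Rpl19 was lower in both sets, 2.07-fold in the bright set, which read 3536 at 0 h, and by a bound of 2.03-fold in the other. Rpsa read 805 and 163 and Rpl8 2563 and 598, while Rpl10a was 4.76-fold lower in 1 set and 1.51-fold higher in the other. Translation factors and tRNA synthetases had 10 of 46 higher (21.7%) and 21 lower (45.7%), but 13 higher and 13 lower after median centring. The elongation factors Eef2 and Eef1d read 1111 and 85.4, and 467 and 34.1. Eif4ebp2, a repressor of cap-dependent translation, was lower in both sets, at 210.2 and 59.5, and 61.6 and 9.16.

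Chaperones and genes of the unfolded protein response had 8 of 46 members higher and 18 lower. Dnajc3, an inhibitor of the eIF2 kinases, was higher in 3 sets, which read 29.1 and 89.2, 27.7 and 93.2, and 18.0 and 108. Fkbp4, a cochaperone of steroid receptors, was lower in sets of 1 record, at 817 and 382, and 146 and 47.1. Sec61b, of the translocon, read 476 and 8.62, and the Hsp90 partner Cdc37 431 and 10.9. Immediate early and AP-1 factors had 4 of 27 higher and 11 lower. Junb and Atf3 were lower in all informative sets, with Atf3 at 409 and 128, and 172 and 24.1. Ccn1 read 278 and 32.8 and Ier2 1012 and 142, while Fos read 1969 and 3119, 1.58-fold higher.

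Both lists of developmental signalling had more lower than higher members, as had all genes. Wnt, Hedgehog and Notch genes had 6 of 45 higher (13.3%) and 16 lower (35.6%), with a median of -0.57, and 9 higher and 10 lower after median centring. The receptor Fzd2 read 271 and 9.60 and the kinase Csnk1e 151 and 1.85. Csnk1a1 and Numb, an inhibitor of Notch, were higher in all sets, with Numb at 33.1 and 78.6, and 23.1 and 57.5. The Hedgehog receptor Ptch1 gave log2 ratios of 1.22 and -2.02 in its sets. Growth factors and receptor tyrosine kinases had 7 of 40 higher (17.5%) and 13 lower (32.5%), against 17.7% and 27.3% of all genes, with a median of -0.60. Kitl, the ligand of the Kit receptor, read 15.3 and 129, 8.41-fold higher, and the ephrin receptor Epha3 119 and 1.96, at least 8.82-fold lower.

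Lists of protein turnover, splicing and oxidant defence held members on both sides. Proteasome and ubiquitin genes had 11 of 45 higher and 15 lower, and splicing genes 11 of 46 and 15. Ube2d3, a ubiquitin-conjugating enzyme, was higher in both sets, at 154 and 340.3, and 34.6 and 314. Ube2h, another, was lower in both, at 87.8 and 19.1, and 54.1 and 25.3. The splicing kinase Clk4 read 135 and 44.0, and 38.9 and 7.42, lower in both. Sfpq, a splicing factor, was at least 15.5-fold lower in 1 set and 2.05-fold and 1.79-fold higher in its other informative sets. Oxidant and xenobiotic defence had 15 of 47 higher and 11 lower. Aldh1a1, which makes retinoic acid, read 20.5 and 350 in 1 set and 22.9 and 19.4 in the other, so its sets differ. Mgst1, a membrane glutathione transferase, read 30.3 and 264, and Gpx4, which protects lipids from oxidation, 118 and 8.84.

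Markers of other cell types were uneven between the samples. The 5 erythroid markers on the array were all lower, with a summed signal of 6458 at 0 h and 1575 at 12 h. The embryonic globins Hba-x and Hbb-y read 753 and 29.3, and 3158 and 1290.2 in the brighter set of Hbb-y, and the adult globin Hba-a1 2407 and 228. Endothelial markers summed to 164 and 437, the larger part of that gap from the cadherin Cdh5, at 51.7 and 263. Pecam1 read 25.4 and 66.2, while the receptor Kdr read 34.3 and 34.4, Tek was at least 1.10-fold higher and Tie1 1.44-fold higher in its brighter set, and at least 2.10-fold lower in the other. The wider endothelial list had 3 of 20 members higher and 3 lower, with a median of -0.14. Neural markers summed to 581 and 182, nearly all of that gap from Tubb3, the neuronal tubulin, which was lower in both sets, at 459 and 74.8, and 76.5 and 33.6. Of the other neural markers, Mbp was 1.80-fold higher, Sox10 1.41-fold lower and Nefl at least 1.11-fold lower, and Gfap was under the floor on both arrays. The wider neural list had 2 of 21 members higher and 8 lower, with Uchl1, a neuronal hydrolase, at 155 and 11.1 and Sox2, a factor of progenitors that also marks oral epithelium, at 123 and 1500, 12.2-fold higher. Muscle markers summed to 597 and 800, with 1 of 7 higher and 3 lower by the 2-fold rule. The larger part of the sum at 12 h came from the troponin Tnnt1, at 95.2 and 585. Its other set read 39.2 and 56.1, 1.43-fold higher. Actc1, a striated muscle actin, was lower in sets of 1 record, at 280.1 and 88.6, and 112 and 32.6. Myod1 read 60.8 and 15.2, 4.01-fold lower, and Tnnc1 50.7 and 6.33, at least 3.75-fold lower. The part of these cell types in the ratios above was not tested.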

How the data were processed

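The deposited intensities are the authors' linear signals, 1 per probe set and array, from Affymetrix 1-colour arrays. Per the labels' protocols, RNA was amplified with the RiboAmp kit and labelled with the ENZO kit, and Microarray Suite 5.0 and GeneSpring 6.0 are named without saying which wrote the values. Scanner files and detection calls were not used here. From these intensities, array totals were matched through the 2% trimmed mean of all non-control sets on the 3 arrays, values below the 40th percentile of the pooled arrays (13.5) were raised to it, and log2 was taken, with Python 3.11.15, numpy 2.4.6 and pandas 2.3.3. Symbols came from platform annotation updated through RefSeq identifiers (GRCm38.p6), which matched 10817 of 10833 single-gene sets. Of the others, 396 name several genes and 1193 none.

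Samples were grouped by their time labels. With 1 array a group no test was run, and differences of 2-fold or more were counted. A gene counted as higher or lower in all sets when at least 2 sets were above the floor on 1 or both arrays and each of these differed at least 2-fold the same way. Genes were named as the first 15 each way by the smaller difference, up to 4 of each list (those with all sets in 1 direction first, then the largest ratios), the 6 widest gaps and the cell type markers, and the lowest places of a ranking were in part not named. Other named genes were chosen after their values were seen. Of the gene lists, 1 is not reported here. The members and lists were chosen with earlier results of these data known. The procedure was run on simulated data, made from the 0 h array with changes planted in bright genes and no noise. That run checks the code and cannot measure the error of these arrays. The alternatives were unscaled values, centring on medians, quantile normalization, a floor at the 20th or the 60th percentile, the mean over sets, removal of suffixes that mark possible cross-hybridization, a 3-fold rule, and scaling and floor from 2 arrays. Requiring 2 sequence records, or a signal of 100, was added after seeing the data.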

Additional observations from a re-analysis of the deposited data

How the results depend on the processing

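With the values as deposited, 603 genes were at least 2-fold higher and 2984 lower, and 28 and 268 in all their sets. Median centring gave 105 and 45 genes in all sets. Lower genes in all sets numbered 61 after quantile normalization and 50 with the floor at the 60th percentile, which also left 1141 lower genes in all. A 3-fold rule gave 610 and 972 genes, and 27 and 32 in all sets. Without sets whose suffix marks possible cross-hybridization, 21 and 43 genes had all sets in 1 direction. With 2 sequence records required, 41 were higher, and with signals of at least 100, 37 were higher and 33 lower. Fewer sets or genes enter these last alternatives by construction, and the cause of the other moves was not tested. Of the 105 genes lower in all sets, 44 kept that under median centring, and of the 63 higher, 28 did with the values as deposited.

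Of 1223 values of 180 named genes under these alternatives, 3 reversed, 69 moved and 1151 did not. A value counted as moved only if its log2 ratio shifted by at least 1.24, the SD between sets of a gene. Smaller shifts from scaling were thus not counted, and the 1151 do not show how many 2-fold calls were kept. Rpl10a became higher under median centring, at a log2 ratio of 1.05, where its other set became the brightest. Without the suffixed sets, Ahcy became -1.92 and Sfpq 0.84, since another set then stands for the gene. The median of each list minus that of all genes kept its sign under all 8 alternatives for 22 of the 31 lists. Signals near the floor of 13.5 limit the interferon list most, since 20 of its 27 ratios are bounds. No paired analysis was possible because each time point has 1 array.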

Other observations

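Probe sets that name no gene or several genes held some of the widest differences between the arrays. Of 1193 sets that name no gene, 570 were above the floor on 1 or both arrays. Of these, 76 (13.3%) were higher and 105 (18.4%) lower by 2-fold or more. These shares count every set, whereas the 17.7% and 27.3% of named genes count each gene's brightest set, so they are not like for like. The set with the widest gap read 10.5 at 0 h, 1046 at 12 h and 86.0 at 24 h, at least 77.3-fold higher. That difference is wider than the one of Gbp3, the gene with the largest ratio among the lists. The next read 7.57, 337 and 997 at the 3 times, and the set with the widest gap downward 435, 16.7 and 164. Of 396 sets that name several genes, 278 were above the floor, 48 were higher and 79 lower, with the lowest ratio in a set at 1904, 53.3 and 51.4.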
